A study of Arabidopsis thaliana with 9 samples.

Results

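AT3G55240, AT3G28990, AT5G02580 and AT1G10657 are related small genes of Arabidopsis thaliana whose products belong to the plant protein 1589 family. Each gene was followed through the single probe set that names it alone. All 4 of the 4 genes have such a probe set, out of 16542 genes with one and 38408 probe sets in all. AT3G55240 came to attention because its signal was much higher in both induced groups than in the group that was not induced. Its own values are therefore given as a description, without a p-value. The other 3 genes were taken for their relation to it and were tested.

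The samples were cotyledons of 6-day-old Col-0 seedlings in 3 groups of 3: CC-S, in which differentiation of phloem companion cells (CC) was strongly induced; CC-M, in which it was moderately induced; and VISUAL, in which it was not. Per the labels' protocols, one wording covers all 9 samples: the cotyledons spent 48 hours in a medium that held 10 µM bikinin (an inhibitor of GSK3 kinases), 0.25 mg per litre kinetin (a cytokinin) and 1.25 mg per litre 2,4-D (an auxin), then moved to the CC induction medium, and were collected 96 hours after CC induction. The labels do not give the difference in medium between the groups. All groups are wild type, and each sample is whole cultured cotyledon tissue, in which a shift in the mix of cells and a change in RNA per cell cannot be told apart. Since the labels are silent on whether replicates were grown apart, each p-value reflects only the spread among these samples, and that spread may be technical.

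Proteins of this family are known from Arabidopsis as repressors of chloroplast development. They bind the GLK transcription factors, which switch on genes of chlorophyll synthesis and light harvesting, and hold back their action. Transcripts of the family are known to respond to light and to brassinosteroids, the hormones whose signalling bikinin switches on.

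Values are log2 signals, so a difference of 1 is a doubling. Signals of different probe sets are not on one scale, so each gene was compared with itself across groups. Where a signal is called dim, this gives its place in the range of the table, not the level of the transcript. Array medians ran from 4.71 to 4.90, and the number of arrays limits the precision.

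AT3G55240 had a far higher signal in both induced groups than in VISUAL. Its log2 signal was 11.29, 10.98 and 10.86 in CC-S replicates 3, 4 and 5, it was 10.54, 10.10 and 9.80 in the CC-M replicates, and it was 5.78, 5.99 and 5.89 in the VISUAL replicates. No value of one group reached into another, so that every CC-S array lay above every CC-M array and every CC-M array far above every VISUAL array. Such separation was found at 18.1% of all probe sets between CC-S and CC-M, at 32.6% between CC-S and VISUAL and at 27.6% between CC-M and VISUAL. The group means were 11.04 ± 0.22 in CC-S, 10.15 ± 0.37 in CC-M and 5.89 ± 0.11 in VISUAL (SD, n = 3 each). The differences of these means were 5.15 for CC-S over VISUAL (35.6-fold), 4.26 for CC-M over VISUAL (19.1-fold) and 0.90 for CC-S over CC-M (1.86-fold). Most of the height of CC-S over VISUAL, 82.6% on the log2 scale, was also present in CC-M. The gap between the induced groups was larger than the SD within either of them, but far smaller than the gap of either to VISUAL. Limma's moderated test did not call the gap between CC-S and CC-M at an adjusted p under 0.05. It called 0.0208% of all probe sets there. The gap was called in 2 of 9 settings that left out no single array, the main one included, and in 0 of 9 that left out 1. These outcomes draw on CC-S and CC-M values for which the gene was chosen. They are a description and no test of the gap.

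Among single-gene probe sets its difference ranked 5 of 16722 for CC-S over VISUAL, 4 for CC-M over VISUAL and 132 for CC-S over CC-M. The first 2 ranks restate why the gene was chosen, and the third draws on the same CC-S and CC-M values, so it too is a description.

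**Figure D1:**
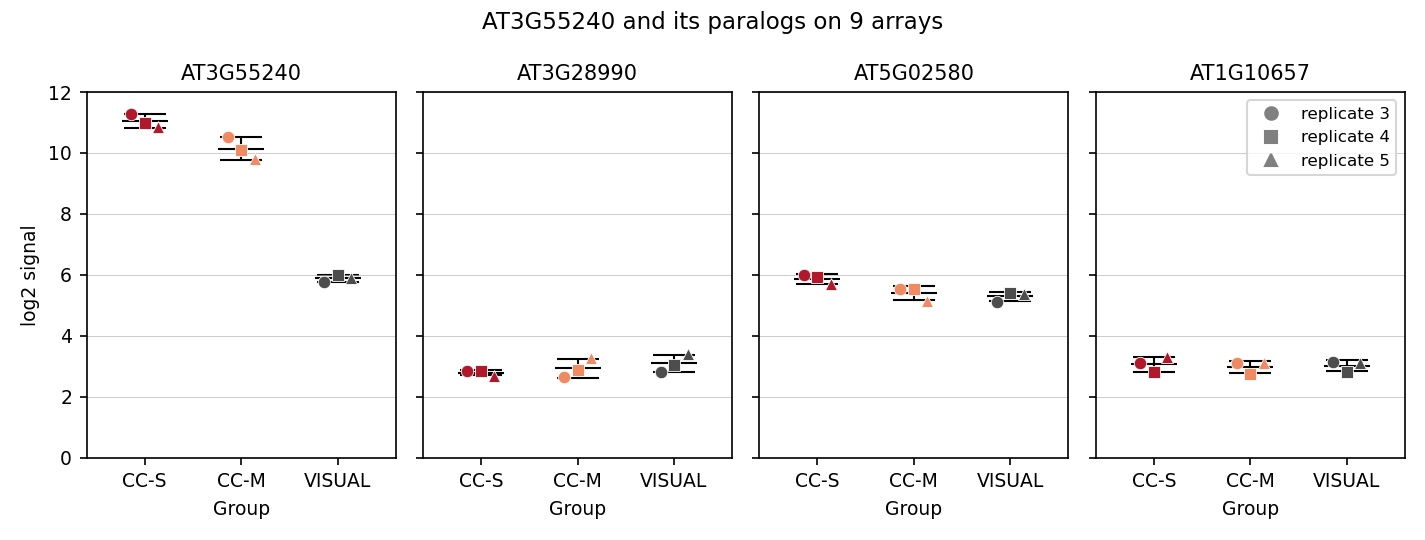
log2 signal (vertical axis) of the 4 genes in CC-S, CC-M and VISUAL; points are single arrays, with a shape for each replicate number, and bars give the mean and SD of 3 arrays. AT3G55240 sits at 9.80 to 11.29 in the induced groups and at 5.78 to 5.99 in VISUAL, AT5G02580 stays between 5.12 and 6.01, and AT3G28990 and AT1G10657 stay between 2.66 and 3.41.

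AT5G02580 was the 1 paralog that rose, and it rose modestly. Its log2 signal was 6.01, 5.94 and 5.70 in CC-S replicates 3, 4 and 5, it was 5.53, 5.53 and 5.13 in the CC-M replicates, and it was 5.12, 5.40 and 5.37 in the VISUAL replicates. All CC-S arrays lay above all others, while CC-M and VISUAL overlapped. Its mean was 5.88 ± 0.16 in CC-S, 5.40 ± 0.23 in CC-M and 5.30 ± 0.15 in VISUAL (SD, n = 3 each). The difference between CC-S and VISUAL was 0.58 (95% interval 0.24 to 0.93), a rise that passed limma's moderated test at an adjusted p of 0.0276. In that comparison 19.2% of all probe sets were called at an adjusted p under 0.05, and 1 of the 3 paralogs was.

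Between CC-M and VISUAL the difference of AT5G02580 was 0.10 (95% interval -0.25 to 0.44, limma adjusted p = 0.765). Between CC-S and CC-M it was 0.48 (95% interval 0.14 to 0.83), which was not called (limma adjusted p = 0.218; unadjusted p = 0.0118), although the groups did not overlap. Values that did not overlap were found at 18.1% of probe sets in that comparison, and calls at 0.0208%. Whether CC-M is placed differently between VISUAL and CC-S in AT5G02580 than in AT3G55240 was not tested. The rise of AT5G02580 between CC-S and VISUAL was no longer called when any 1 of 4 arrays was left out (CC-S 3 or 4, VISUAL 3 or 5; highest adjusted p = 0.0956), and the difference ranged from 0.49 to 0.67 over the 9 such fits.

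AT3G28990 was dim in every group and its groups overlapped. Its log2 signal was 2.85, 2.84 and 2.69 in CC-S replicates 3, 4 and 5, it was 2.66, 2.87 and 3.27 in the CC-M replicates, and it was 2.82, 3.06 and 3.41 in the VISUAL replicates. The difference was -0.30 between CC-S and VISUAL (95% interval -0.77 to 0.16, limma adjusted p = 0.387). It was -0.16 between CC-M and VISUAL (95% interval -0.63 to 0.30), where 11.6% of probe sets were called, and -0.14 between CC-S and CC-M (95% interval -0.60 to 0.33). These intervals leave room for a change of either sign in the measured signal.

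AT1G10657 was dim as well. Its log2 signal was 3.10, 2.80 and 3.29 in CC-S replicates 3, 4 and 5, it was 3.10, 2.75 and 3.10 in the CC-M replicates, and it was 3.16, 2.82 and 3.10 in the VISUAL replicates. The groups lay on top of each other: the difference was 0.04 between CC-S and VISUAL (95% interval -0.37 to 0.45, limma adjusted p = 0.925), -0.05 between CC-M and VISUAL (-0.46 to 0.37) and 0.08 between CC-S and CC-M (-0.33 to 0.50). The deposited value was exactly 3.09717 on 4 of the 9 arrays. Such a repeat on at least 4 arrays occurs at 11.05% of single-gene probe sets and at none of the other 3 members.

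The means of AT3G28990 and AT1G10657 over all arrays stood above only 21.8% and 23.2% of probe sets. The table holds no detection call, so whether these signals differ from background was not tested, and a change of a transcript below background would not be detectable. How far the probes of the 4 genes read each other's transcripts was not analysed here.

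**Figure D2:**
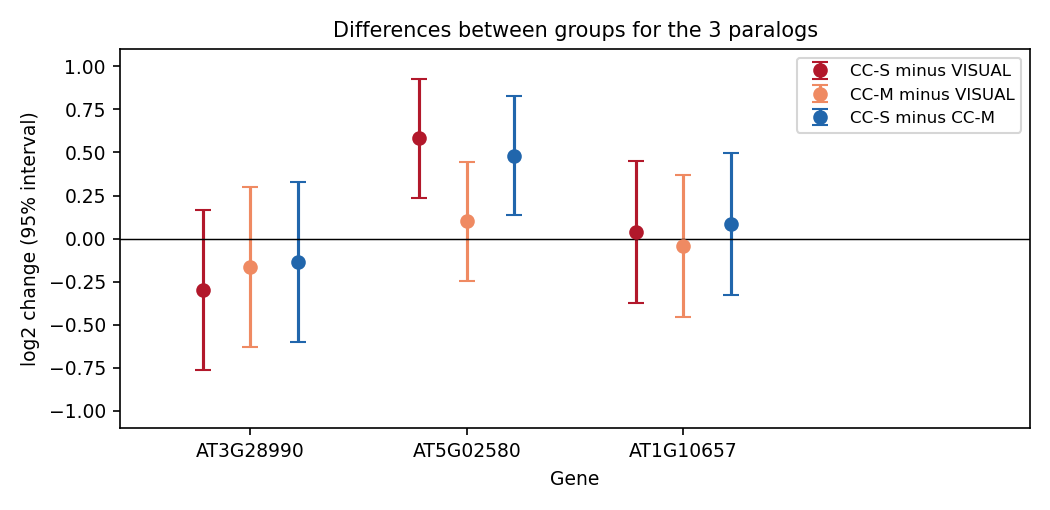
Difference of mean log2 signal (vertical axis, with 95% intervals from limma's moderated fit) for AT3G28990, AT5G02580 and AT1G10657 in the 3 comparisons. Only the intervals of AT5G02580 that involve CC-S lie above 0 (0.24 to 0.93 against VISUAL and 0.14 to 0.83 against CC-M); the others include 0.

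Within each group, the arrays of AT3G55240 and AT5G02580 fell in one and the same order: replicate 3 was highest and 5 lowest in CC-S and in CC-M, and 4 was highest and 3 lowest in VISUAL. AT3G28990 had this order in CC-S only, and AT1G10657 had it in no group. Of single-gene probe sets, 0.92% had this order in all 3 groups. The array medians had that order too, and their part in it was not tested. With each array centred on its median, AT3G55240 kept the order in all 3 groups, while AT5G02580 kept it in CC-S only. Centring changed the group differences little, to 0.51 for AT5G02580 between CC-S and VISUAL (limma adjusted p = 0.0274).

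The genes whose 9 values ran most like those of AT3G55240 were picked by the root mean square distance between profiles, each centred on its own mean. This too is a description, since the profile was the reason for choosing the gene. Nearest was AT1G08230, a GABA transporter gene, at a distance of 0.37 on the log2 scale. Its signal was 10.23, 10.30 and 9.66 in CC-S, then 9.63, 9.33 and 9.36 in CC-M, and 4.74, 6.09 and 5.02 in VISUAL, so the groups were placed as in AT3G55240 while the VISUAL arrays were spread wider. The peroxidase gene Prx37 (AT4G08770) followed at 0.55, and then the glutaredoxin gene AT5G18600, the lipid transfer protein gene AT3G18280 and AT2G44380, each at 0.57. These 5 genes differed between CC-S and VISUAL by 3.99 (AT2G44380) to 6.20 (AT5G18600) and between CC-M and VISUAL by 3.58 (AT2G44380) to 5.43 (AT3G18280). In VISUAL, AT5G18600 and AT2G44380 were dim (means 2.45 and 3.25), and whether these signals differ from background was not tested. Between CC-S and CC-M the values overlapped in Prx37, AT3G18280 and AT2G44380, and limma's moderated test called 0 of the 5 genes there, with 2 (Prx37 and AT5G18600) at an unadjusted p under 0.05.

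For AT5G02580 the nearest profiles were those of AT1G74088, AT1G74580 and AT5G26850, at distances of 0.08, 0.09 and 0.09. Each of them differed by 0.49 to 0.62 between CC-S and VISUAL and by 0.07 to 0.17 between CC-M and VISUAL. Similar differences follow from how the genes were picked, so these values are a description. AT5G26850 was not called between CC-S and VISUAL (limma adjusted p = 0.0511).

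**Figure D3:**
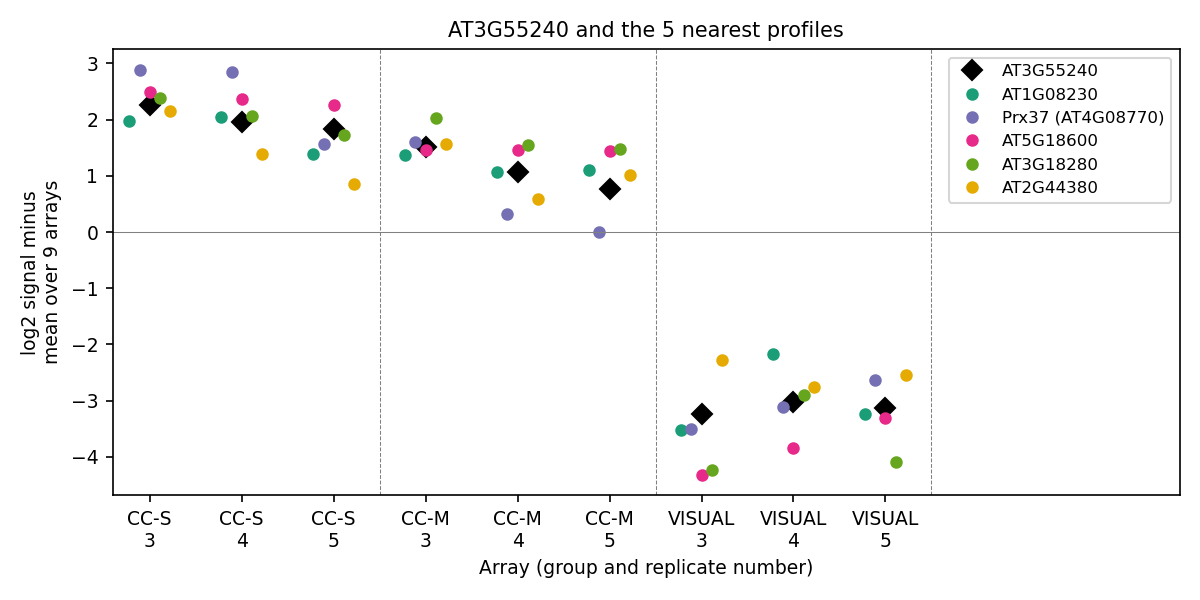
log2 signal minus the gene's own mean over 9 arrays (vertical axis) for AT3G55240 (black diamonds) and the 5 single-gene probe sets with the nearest profiles, by array. All 6 genes are far higher in CC-S and CC-M than in VISUAL; the CC-S and CC-M values overlap in Prx37, AT3G18280 and AT2G44380.

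The genes next to the members on the chromosome did not share one pattern. Of the 16 genes that lie within 2 places of a member in the reference gene table (assembly TAIR10.1), 9 have a single-gene probe set. Between CC-S and VISUAL 1 of them rose and 2 fell, against rises at 10.1% and falls at 9.07% of all probe sets. Between CC-M and VISUAL 1 rose and 2 fell as well, against rises at 6.49% and falls at 5.15% of all probe sets. AT3G55230, directly beside AT3G55240, was dim, and its CC-S and VISUAL means differed by little (0.01, 95% interval -0.27 to 0.29). It was the only measured gene of the 4 around AT3G55240, and neither gene on the other side was measured. AT3G29000, beside AT3G28990, fell by 2.31 between CC-S and VISUAL and by 1.39 between CC-M and VISUAL (limma adjusted p = 0.000142 and 0.00296). AT1G10660, beside AT1G10657, rose by 0.80 and 0.72, and ACLA-1, a gene for a subunit of ATP-citrate lyase in the same stretch, fell by 0.80 and 0.57. Of the 4 genes around AT5G02580 only 2 were measured, and neither was called: AT5G02570 differed by -1.25 between CC-S and VISUAL (limma adjusted p = 0.0551) and AT5G02590 by -0.08.

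The pathway in which this protein family is known to act could be read only in part. Neither GLK gene and none of 19 brassinosteroid signalling and synthesis genes has a single-gene probe set. Of 26 listed chlorophyll synthesis genes 7 were measured, of 20 light-harvesting genes 4, and of 12 light signalling genes 2.

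Among chlorophyll synthesis genes 4 of 7 rose and 0 fell between CC-S and VISUAL, with a median difference of 0.37, against 0.02 over all probe sets. Rises were called at 10.1% of all probe sets in this comparison. CHLM, which methylates magnesium protoporphyrin, had log2 signals of 7.56, 7.71 and 7.52 in CC-S, 7.38, 7.22 and 7.22 in CC-M, and 6.43, 6.37 and 6.51 in VISUAL. It rose by 1.16 between CC-S and VISUAL and by 0.84 between CC-M and VISUAL (limma adjusted p = 9.15e-05 and 0.000757). The CC-S values of CHLM and of PORB did not overlap those of CC-M, as at 18.1% of all probe sets, and neither gene was called between these groups (limma adjusted p = 0.169 and 0.524).

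PORB, a protochlorophyllide reductase that needs light, rose by 0.95 in CC-S and by 0.74 in CC-M against VISUAL (limma adjusted p = 0.000869 and 0.00555). HEME2, a uroporphyrinogen decarboxylase gene, rose by 0.50 and 0.49 (limma adjusted p = 0.0122 and 0.0227), and its CC-M call was lost without CC-M replicate 4 or 5 or VISUAL replicate 3, with adjusted p up to 0.0823. GSA1, whose enzyme makes aminolevulinate, rose by 0.32 in CC-S (limma adjusted p = 0.0429) and differed by 0.33 in CC-M (0.0547). The GSA1 call in CC-S held in only 1 of 9 fits that each left out an array, with adjusted p up to 0.136, and was lost with each array centred on its median (0.0730). Between CC-M and VISUAL 3 of the 7 genes rose and 0 fell (median 0.33, against 0.02 over all probe sets), where rises were called at 6.49% of probe sets. Between CC-S and CC-M 0 of 7 were called by limma's moderated test, with 1 (CHLM) at an unadjusted p under 0.05.

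The light-harvesting genes encode the chlorophyll-binding antenna proteins. The 4 that were measured, LHCB1.5, LHCB4.1, LHCB4.2 and LHCB4.3, did not move as a group. LHCB4.3 fell in both induced groups, to a mean of 4.36 in CC-S and 4.47 in CC-M, against 5.46 in VISUAL (limma adjusted p = 0.00141 and 0.00425), with signals of 4.09, 4.58 and 4.43 in CC-S, 4.29, 4.49 and 4.62 in CC-M, and 5.47, 5.47 and 5.46 in VISUAL. Its CC-S and CC-M means lay below every array median, and whether these signals differ from background was not tested. LHCB4.2 rose by 0.60 in CC-S (limma adjusted p = 0.0466), a call that held in 1 of 9 fits that each left out an array, with adjusted p up to 0.133, and was lost with centred arrays (0.0820) and after quantile normalization (0.0559). LHCB4.1 and LHCB1.5 differed by -0.24 and -0.08 between CC-S and VISUAL and by -0.09 and -0.14 between CC-M and VISUAL. LHCB4.1 was called lower in CC-S without VISUAL replicate 5 (-0.41, limma adjusted p = 0.0275), and LHCB4.2 was called higher in CC-M without VISUAL replicate 3 (0.70, limma adjusted p = 0.0282). In all, 1 of 4 rose and 1 fell between CC-S and VISUAL (median -0.16), and 0 rose and 1 fell between CC-M and VISUAL (median -0.12), where falls were called at 9.07% and 5.15% of all probe sets.

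Of the 2 measured light signalling genes, PIF7, a bHLH factor that binds phytochrome, rose by 1.04 in CC-S and by 1.17 in CC-M against VISUAL (limma adjusted p = 0.00828 and 0.00857). Its signals were 4.38, 4.39 and 4.81 in CC-S, 4.66, 4.66 and 4.66 in CC-M, and 3.53, 3.08 and 3.85 in VISUAL. CC-S and CC-M overlapped here, unlike in AT3G55240. HYH, a bZIP factor of light responses, differed by 0.12 and 0.03 and was not called. The VISUAL means of PIF7 and HYH, 3.49 and 3.56, lay below every array median. Whether these signals differ from background was not tested.

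**Figure D4:**
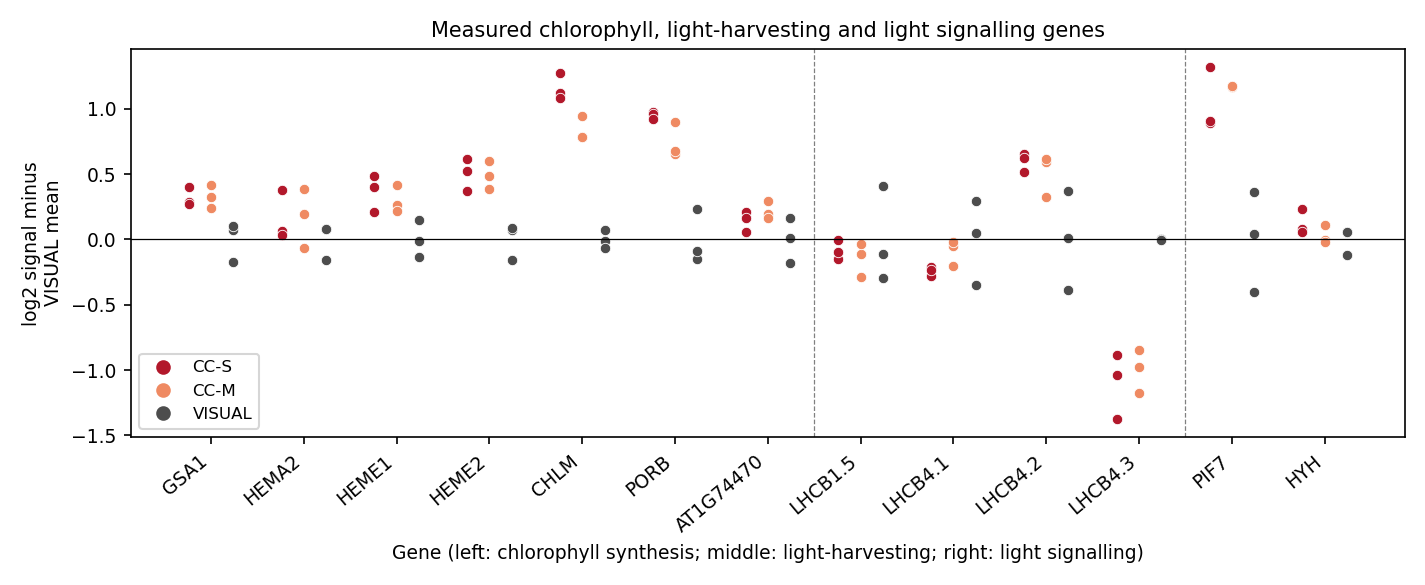
log2 signal minus the VISUAL mean of the same gene (vertical axis) for the 7 chlorophyll synthesis, 4 light-harvesting and 2 light signalling genes that were measured; each point is 1 array. CHLM, PORB and PIF7 are above 0 on every CC-S and CC-M array, and so are HEME2, GSA1, HEME1, LHCB4.2 and AT1G74470. LHCB4.3 is below 0 on every one. All genes but CHLM, PORB, PIF7 and LHCB4.3 stay within 0.7 of 0.

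Of the listed companion cell, phloem parenchyma and xylem vessel markers 3 were measured. For CC-S against CC-M limma's moderated test called 0 of these, with 1 (SAPL) at an unadjusted p under 0.05. Against VISUAL, calls made up 19.2% of all probe sets in CC-S and 11.6% in CC-M. SAPL (AT3G12730), the 1 measured gene of 9 companion cell markers, rose by 3.04 in CC-S and by 2.12 in CC-M against VISUAL. Its signals were 8.42, 8.85 and 8.43 in CC-S, 7.99, 7.43 and 7.52 in CC-M, and 4.87, 5.66 and 6.03 in VISUAL. SWEET11, 1 measured of 2 phloem parenchyma markers, rose by 2.33 in CC-S and differed by 1.31 in CC-M, which was not called (limma adjusted p = 0.131; called without VISUAL replicate 4, adjusted p = 0.0171). IRX15, 1 measured of 7 xylem vessel markers, fell by 1.91 and by 1.51; the CC-M call was lost without CC-M replicate 3 or 4 or VISUAL replicate 3, with adjusted p up to 0.0967. The part of the cell mix in the level of AT3G55240 was not tested, and the other listed markers were not analysed here. The chlorophyll synthesis and light-harvesting genes were also listed as mesophyll markers, and the part of mesophyll in their differences was not tested.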

How the data were processed

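Per the labels' protocols, biotin-labelled cRNA from total RNA of 9 samples was read on one-colour arrays. The table deposited by the authors gives a log2 signal for each of 38408 probe sets. It was made with Affymetrix Expression Console, per the submitters' processing notes, with the summary method not given in the sources used. No further scaling was applied. Of the probe sets 16722 name 1 gene through the platform annotation, 759 name several and 20927 are unnamed here; 16574 of the 16722 were matched by gene number to the TAIR10.1 gene table. All 9 sample columns were used.

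The test was limma's moderated one (limma 3.58.1 under R 4.3.3), 2-sided, with lmFit and a trended eBayes. A single fit took all 9 arrays and gave each group its mean (6 residual and 2.65 prior degrees of freedom), with Benjamini-Hochberg adjustment over all 38408 probe sets; a call is an adjusted p under 0.05. Python 3.11.15 and pandas 2.3.3 were used for tables. On simulated data for CC-S with VISUAL (38408 probe sets) the fit recovered 69 of 100 probe sets changed by 1 and 91 of 100 changed by 2, with 10 false calls. All groups were drawn around the VISUAL means with normal noise of the fitted spread, and no other probe sets were changed. In the data 7365 probe sets were called in this comparison, so these figures do not carry over to the test as applied.

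Named genes are the members, up to 4 measured genes of each list by smallest p, the 2 genes on either side of each member, and the nearest profiles (5 for AT3G55240, 3 for another member that was called). The members and lists were chosen with earlier results of these data known. AT3G12730 is called SAPL from general knowledge; the gene table gives only its locus. Where a gene has several probe sets the brightest was used. Alternatives were other scalings, a filter on dim probe sets, other variance settings, array weights, the replicate number as a block, fewer groups or probe sets, and leaving out each array. Protein and promoter sequences were not used here.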

Additional observations from a re-analysis of the deposited data

How the results depend on the processing

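Over 17 other settings the differences of AT3G55240 moved by less than the spread between replicates, with 5.03 to 5.25 between CC-S and VISUAL, 4.06 to 4.43 between CC-M and VISUAL and 0.72 to 1.09 between CC-S and CC-M when single arrays were left out. The replicate numbers are shared by the groups. Same-numbered arrays deviated together only weakly (correlations of -0.03 to 0.12, mean 0.05), so they were not taken as pairs. Differently numbered arrays of different groups had correlations of -0.16 to 0.08, with a lower mean of -0.03. With the replicate block AT5G02580 differed by 0.58 between CC-S and VISUAL (limma adjusted p = 0.0352), and no call of a member changed. GSA1 in CC-S against VISUAL was not called with that block (limma adjusted p = 0.0697). AT5G02580 between CC-S and VISUAL kept its call in all 8 settings other than leaving out arrays, and with arrays left out ranged from 0.49 to 0.67.

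Differences near 0 changed sign. AT1G10657 between CC-S and VISUAL was -0.028 with centred arrays and -0.023 with array weights, and -0.076 to 0.17 with arrays left out; it ranged from -0.15 to 0.071 between CC-M and VISUAL and from -0.033 to 0.21 between CC-S and CC-M. AT3G28990 ranged from -0.27 to 0.032 between CC-S and CC-M. HYH between CC-M and VISUAL was -0.021 after quantile normalization, -0.044 with centred arrays and -0.030 to 0.057 with arrays left out. LHCB1.5 ranged from -0.23 to 0.12 in CC-S and from -0.29 to 0.061 in CC-M against VISUAL, and LHCB4.1 from -0.26 to 0.057 in CC-M.

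Calls numbered 3864 between CC-S and VISUAL and 2391 between CC-M and VISUAL where only the 16722 single-gene probe sets were tested. Over all 38408 probe sets they numbered 7365 and 4470, so these counts have different bases and their sizes are not comparable. Leaving out arrays gave 2450 to 4666 calls between CC-M and VISUAL. Between CC-S and CC-M, where 8 were called, there were 42 after quantile normalization, 38 with centred arrays, 310 without the dimmest 40% of probe sets, 0 with no intensity trend, 847 with array weights, 4 with only the compared groups, 179 with single-gene probe sets and 0 to 309 with arrays left out; the cause was not tested.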
